A study of Xenopus laevis with 6 samples.

Results

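Genes of Wnt signalling were compared between Xenobots, motile bodies that form from embryonic ectoderm explanted from the frog Xenopus laevis, and whole embryos of the same age. The genes were taken by symbol from the deposited table of 42638 genes: Wnt ligands, the proteins that lipidate and export them, Frizzled, LRP and ROR receptors, secreted antagonists, the R-spondin axis with its receptors and ligases, Dishevelled, Axin, APC, β-catenin and the TCF/LEF factors. The symbols matched 106 genes of 65 symbols, and 41 of these symbols were present as both the L and the S copy, the homeologs that the allotetraploid frog carries on its long and short chromosome sets. The symbol rule itself uses no expression value, but it was drawn up with earlier results of these data known.

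The Xenobot group held 3 pools of 50 Xenobots each, cut as ectoderm at stage 9, kept in 0.75X Marc's Modified Ringer's (MMR) medium and collected on day 7. The embryo group held 3 pools of 10 intact sibling embryos each, kept in 0.1X MMR for 7 days to stage 35. Both groups were wild type, untreated and held at 14 °C, so in these pools tissue content and medium differ together and cannot be told apart. In separate embryo pools, not used here, the study compared 0.75X MMR after stage 9 with 0.1X MMR and reported very little transcriptional change. A whole embryo holds every organ of that stage, whereas the explant starts from ectoderm alone; in bulk pools, fewer cells of a type and less RNA per cell cannot be told apart. The labels do not say whether the pools came from separate clutches, and the study states only in general that replicates came from independent batches, so the p-values measure the spread between pools.

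Wnt proteins are secreted lipid-modified glycoproteins that bind Frizzled receptors. Together with the co-receptors LRP5 or LRP6 they halt the destruction complex of Axin, APC, GSK3 and casein kinase, so that β-catenin accumulates and acts with TCF/LEF factors on target genes. Other Wnt signals run through ROR receptors and the planar polarity proteins and shape cell movement. In the frog, Wnt signals are known for setting the dorsal side, patterning the neural plate from front to back, inducing neural crest and shaping the mucociliary epidermis. Secreted antagonists of the organizer and the head protect anterior tissue from posteriorizing Wnt.

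The libraries held 13597538 to 22225123 estimated counts, so that 1 count was worth 0.0465 to 0.0839 CPM, the library-scaled count after TMM normalization, and ribosomal RNA genes took 26.4 to 40.7% of the counts. Epidermal markers summed to 13034 to 14046 CPM in Xenobots and 2166 to 3058 CPM in embryos, and 12 of 13 tested were higher in Xenobots. Among multiciliated cell markers 7 of 9 were higher and 2 lower, and among ionocyte markers 3 of 4 were higher. Muscle markers summed to 21.3 to 224 CPM in Xenobots against 4800 to 7716 CPM in embryos (11 of 11 lower), blood, vessel and liver markers to 1.10 to 1.60 against 2066 to 2134 CPM (6 of 6 lower), and notochord and cartilage markers to 67.6 to 170.4 against 1226 to 1382 CPM (5 of 5 lower). Neural markers summed to 77.1 to 85.4 against 299.8 to 414 CPM, with 8 of 9 lower and 1 higher. The higher gene, syt1.L, made up most of the Xenobot sum, with 73.5, 81.1 and 78.9 CPM there and 20.4, 21.6 and 22.6 CPM in embryos. No Xenobot pool had a count of the neural genes elavl3.L, nefm.L and snap25.S or the notochord and cartilage genes shh.L and shh.S. The blood and liver genes hba1.S and alb.S and the cartilage gene matn1.S had none either, but were too low to be tested. In embryo pools 1, 2 and 3, alb.S had 18, 7 and 9 counts, hba1.S had 6, 9 and 16, and matn1.S had 1, 0 and 0. The absence of alb.S, hba1.S and matn1.S from Xenobots therefore says little. Muscle signal remained above 0. What remained of the notochord and cartilage sum came mostly from col2a1.L (54.2, 105.2 and 39.8 CPM in Xenobot pools 1, 2 and 3) and col2a1.S (31.7, 63.9 and 27.5 CPM). The part of these tissues in the results below was not tested beyond the values given here.

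Wnt genes were present in Xenobots at 91.7% of the embryonic total, but the makeup of that total differed. The 106 genes summed to 1491 ± 19.0 CPM in Xenobots and 1626 ± 38.6 CPM in embryos (mean ± SD, n = 3 pools each, here and throughout). The cytoplasmic genes, most of whose counts came from β-catenin, were the class with a higher sum in Xenobots, at 851, 903 and 892 CPM against 707, 763 and 713 CPM. The β-catenin copies alone summed to 634 ± 54.2 CPM in Xenobots and 432 ± 37.8 CPM in embryos. The cytoplasmic sum therefore rests largely on this gene. The higher β-catenin level also brings the Xenobot total closer to the embryonic one. Secreted antagonists gave 69.9, 82.4 and 56.2 CPM in Xenobots and 166, 159 and 169.7 CPM in embryos, 42.2% of the embryonic level. The R-spondin axis stood at 52.1%, with 60.8 ± 4.17 CPM against 116.6 ± 4.59 CPM. Receptors and ligands stood above both, at 72.9% and 73.5% of the embryonic sums, ligand processing genes at 79.4% and nuclear factors at 91.4%. Pools of the groups did not overlap for ligands, receptors, antagonists, the R-spondin axis or the cytoplasmic class, and they overlapped for ligand processing and for nuclear factors. These sums are not corrected for gene length, so they weigh long transcripts more.

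**Figure D1:**
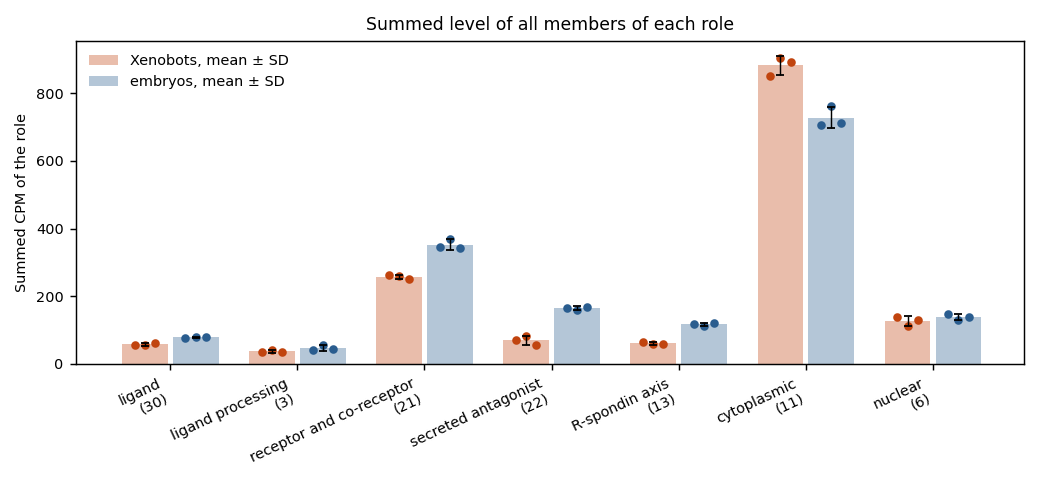
Summed expression of the Wnt genes by role in each pool, in TMM-normalized CPM on a linear axis from 0, with dots for the 3 Xenobot and 3 embryo pools, bars for their means and whiskers for the SD. Secreted antagonists average 69.5 CPM in Xenobots against 164.8 CPM in embryos, while the cytoplasmic genes, with most counts from β-catenin, lie higher in Xenobots.

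Single genes were tested with limma on voom-transformed counts over the 26752 genes with more than 0.6 CPM in at least 3 libraries, and all adjusted p-values below are Benjamini-Hochberg values from that fit unless another is named. Differences are log2 fold changes of Xenobots over embryos. Of the 106 Wnt genes, 93 passed the expression filter, 16 of them through the 3 embryo pools alone and 0 through the Xenobot pools alone. Of all 26752 tested genes, 3733 passed through the embryo pools alone and 247 through the Xenobot pools alone. Among the 93, 16 were higher in Xenobots (17.2%, against 29.6% of all tested genes) and 58 were lower (62.4%, against 36.2%), and 19 were not called at an adjusted p of 0.05. With a log2 fold change beyond 2 as well, the threshold the study used, 3 were higher (3.23%, against 5.75%) and 34 lower (36.6%, against 20.5%). All Xenobot pools lay above all embryo pools for 17 members (32.8% of all genes did so), all lay below for 61 (38.9%), and the groups overlapped for 15. The median log2 fold change was -0.84 over the tested members and -0.07 over all tested genes, and the members ranged from -8.47 to 2.65. The low end is a fitted value of sfrp5.L, which did not exceed 3 counts in any Xenobot pool. Genes that passed only through the embryo pools had to be lower in Xenobots, so these counts, and the class and list counts below, are a description. The 13 untested genes were 9 ligands (wnt1.L, wnt1.S, wnt2.L, wnt3.L, wnt6.S, wnt7c.S, wnt8a.L, wnt8a.S and wnt8b.S), the antagonists frzb2.L, frzb2.S and sfrp4.L, and rspo1.S. None of these exceeded 1.45 CPM in any pool, and 5 had no count in any Xenobot pool.

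**Figure D2:**
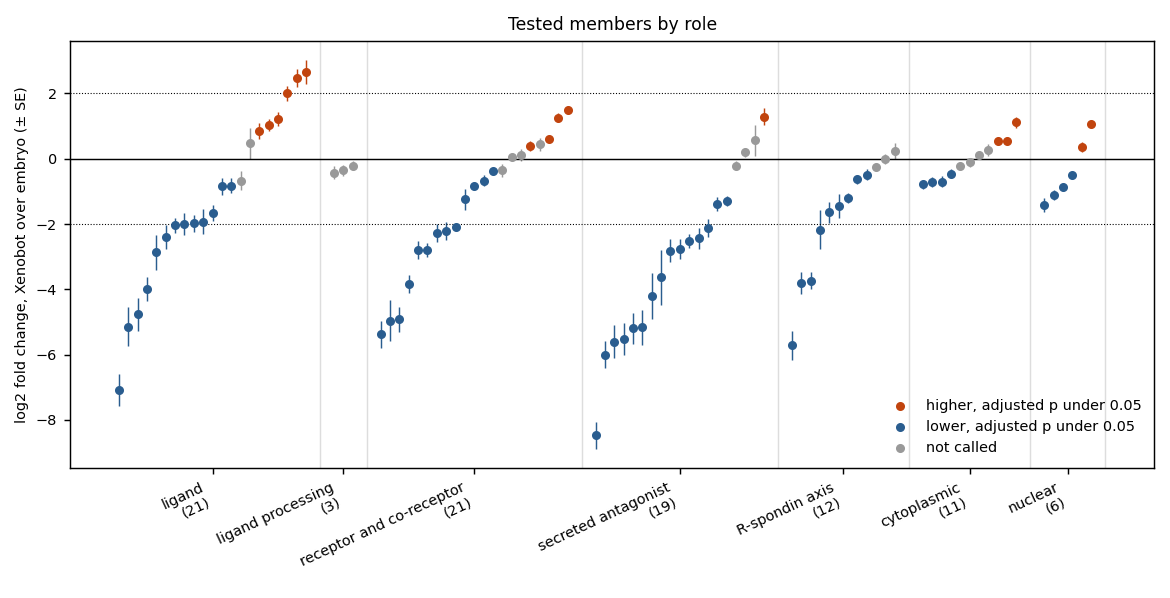
Log2 fold change of Xenobots over embryos (points, with SE bars) for the 93 tested Wnt genes, arranged by role, with dotted lines at the fold threshold of 2 on either side. Members past it on the higher side are the ligands wnt16.S, wnt10a.L and wnt6.L, while the 34 past it on the lower side are ligands, receptors, antagonists and R-spondin axis genes; points of genes at the count floor are fitted values, not bounds.

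The ligand repertoire of Xenobots differed from that of embryos more than its total did. Copies of wnt16, wnt10a, wnt6 and wnt3a were higher in Xenobots, and copies of wnt11, wnt9a, wnt5b, wnt5a, wnt4, wnt10b and wnt7b were lower. Of 21 tested ligands, 6 were higher (28.6%, against 29.6% of all tested genes) and 13 lower (61.9%, against 36.2%). Past the fold threshold were 3 higher (14.3%, against 5.75%) and 8 lower (38.1%, against 20.5%), and the median log2 fold change was -1.67. The 6 that were higher took 72.3 ± 2.72% of all ligand counts in Xenobots and 15.4 ± 1.37% in embryos; they were picked by their values, so this share is a description and carries no test.

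The gene wnt16, known in zebrafish for a part in the specification of blood stem cells, showed the largest rise of any member in its S copy. wnt16.S stood at 7.08, 8.08 and 14.3 CPM in Xenobot pools 1, 2 and 3 and at 1.31, 1.32 and 1.63 CPM in the embryo pools, a 6.29-fold difference with a log2 fold change of 2.65 (SE 0.37, adjusted p = 0.000122). All Xenobot pools were above all embryo pools, with pool 3 the highest. The L copy moved the other way: wnt16.L gave 0.137, 0.188 and 0.928 CPM in Xenobots and 1.87, 2.14 and 2.74 CPM in embryos, for a log2 fold change of -2.86 (SE 0.54, adjusted p = 0.000968). Without Xenobot pool 3, again the highest, its log2 fold change was -3.55. The copies lie on chromosomes 3S (78896551 to 78911427) and 3L (76196637 to 76213605) of the NCBI assembly Xenopus_laevis_v10.1. RSEM divides reads that fit both copies, so a sum is firmer than either copy, and the summed wnt16 was higher, with a log2 fold change of 1.34 (SE 0.29, adjusted p = 0.00291).

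The ligand WNT10A is known in mammals for hair, tooth and sweat gland development, and its gene sits beside wnt6 in the frog. wnt10a.L measured 11.0, 8.13 and 9.48 CPM in Xenobots and 1.20, 1.80 and 2.14 CPM in embryos, for a log2 fold change of 2.47 (SE 0.26, adjusted p = 2.1e-05). wnt10a.S rose less, from 1.94, 1.82 and 2.60 CPM in embryos to 5.13, 4.65 and 5.04 CPM in Xenobots, a log2 fold change of 1.21 (SE 0.21, adjusted p = 0.000654). The ranges of the groups did not overlap for either copy. Wnt6, an ectodermal signal that induces neural crest in the chick, was read mainly from its L copy. wnt6.L stood at 8.04, 7.19 and 9.74 CPM in Xenobots and 1.64, 2.54 and 1.95 CPM in embryos, for a log2 fold change of 2.01 (SE 0.23, adjusted p = 3.71e-05). wnt6.S was below the filter, at 0.412, 0.470 and 0.588 CPM in Xenobots and 0.374, 0.271 and 0.140 CPM in embryos, so its difference was not tested.

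Wnt3a, a signal of the dorsal neural tube and the tail bud, rose in both copies. wnt3a.L gave 5.43, 6.39 and 5.76 CPM in Xenobots and 3.02, 2.95 and 2.70 CPM in embryos, for a log2 fold change of 1.03 (SE 0.18, adjusted p = 0.000558). For wnt3a.S the values were 3.64, 3.57 and 2.81 CPM and 1.47, 2.19 and 2.09 CPM, a log2 fold change of 0.84 (SE 0.25, adjusted p = 0.0131). The pools were apart for both copies, but the call on wnt3a.S was lost without embryo pool 1 (0.66, adjusted p = 0.0573) and with scaling to total counts (0.69, adjusted p = 0.0677).

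Wnt11, which acts in heart formation, was the ligand with the deepest fall. wnt11.L gave 0.0687, 0.171 and 0 CPM in Xenobots against 11.5, 13.8 and 13.2 CPM in embryos, for a log2 fold change of -7.08 (SE 0.49, adjusted p = 1.71e-06), with under 4 estimated counts in every Xenobot pool. wnt11.S gave 0.344, 0.205 and 0 CPM against 5.24, 6.36 and 5.03 CPM, a log2 fold change of -5.15 (SE 0.60, adjusted p = 3.7e-05). Without Xenobot pool 3, which had no count of either copy, these were -6.47 and -4.26, and without Xenobot pool 1 wnt11.S gave -5.81. In the deposited adjusted values the falls were smaller, at -5.17 and -2.89, and both were still called. wnt11b.L, the frog paralog best known as a maternal dorsal determinant, did not exceed 3 counts in any Xenobot pool and averaged 2.88 ± 0.375 CPM in embryos, so it was at least 14.4-fold lower against that floor of 3 counts per library.

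Wnt9a, a signal of joint development in the mouse, fell in both copies. wnt9a.L stood at 0.232, 0.423 and 0.168 CPM in Xenobots and 4.96, 4.48 and 4.80 CPM in embryos, for a log2 fold change of -3.98 (SE 0.36, adjusted p = 7.93e-06). wnt9a.S stood at 1.14, 1.22 and 0.923 CPM and 4.85, 4.02 and 4.46 CPM, a log2 fold change of -1.97 (SE 0.26, adjusted p = 9.07e-05). Xenobots lay below embryos in every pool for both. Ligands known for signalling without β-catenin fell as well, with log2 fold changes of -2.04 for wnt5b.L, -2.39 for wnt5b.S and -1.67 for wnt5a.S. So did wnt10b.L (-2.01), wnt4.S (-1.92), wnt4.L (-0.83) and wnt7b.L (-0.84), although wnt4.L and wnt7b.L were not called in the surrogate-variable-adjusted values that the authors deposited (-0.15, adjusted p = 0.555, and -0.48, adjusted p = 0.122). No call was made for wnt2b.L, at -0.67 (SE 0.30, adjusted p = 0.0718), or wnt9b.2.L, at 0.47 (SE 0.48, adjusted p = 0.411). In the deposited adjusted values, wnt2b.L was called lower (-0.996, adjusted p = 0.012) and wnt9b.2.L higher (1.06, adjusted p = 0.0129). Here and below, p-values from the deposited adjusted values can be too small. The adjustment can take out spread between pools, and the fit did not allow for it. Without Xenobot pool 1, wnt2b.L was also called (-0.86, adjusted p = 0.0464).

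**Figure D3:**
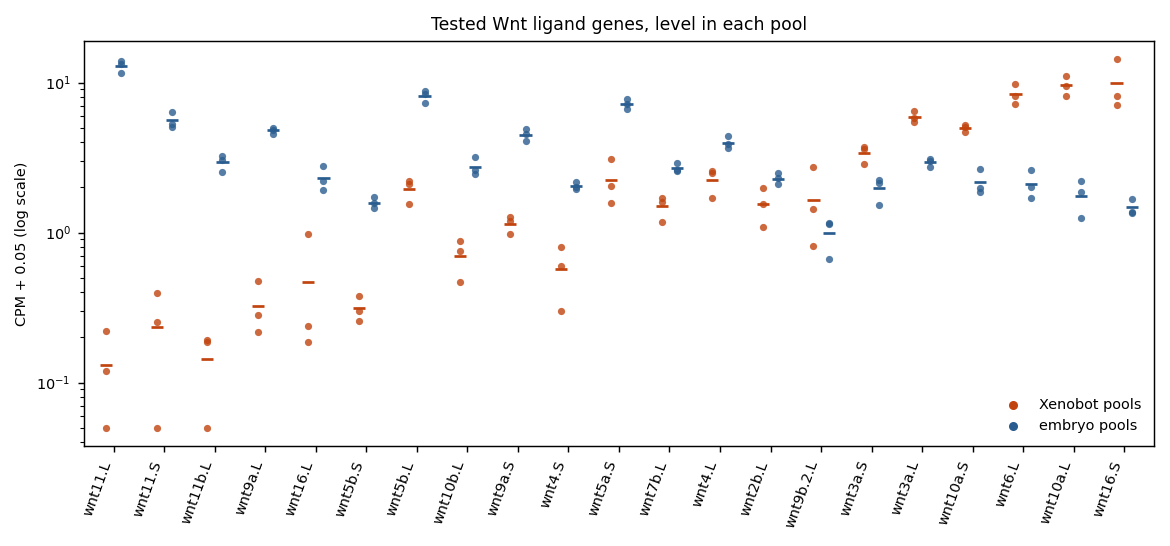
TMM-normalized CPM of the 21 tested Wnt ligands in each of the 3 Xenobot and 3 embryo pools (dots, CPM + 0.05 on a log axis) with group means as short bars. Xenobot pools lie above embryo pools for wnt16.S, wnt10a, wnt6.L and wnt3a, and near the bottom of the axis for wnt11, where embryo pools of wnt11.L read 11.5 to 13.8 CPM.

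Several Wnt genes lie next to each other with no other protein-coding gene between them, and neighbours moved together or apart. On chromosome 9_10L, wnt10a.L (63074160 to 63101719) and wnt6.L (63126401 to 63167761) are 24681 bases apart, and both rose, by 2.47 and 2.01 on the log2 scale. On chromosome 6L, wnt9a.L (8029293 to 8117370) and wnt3a.L (8228855 to 8283605) are 111484 bases apart and differed in direction, with -3.98 and 1.03. The same order and the same split were found on 6S, where wnt9a.S (4980557 to 5062758) gave -1.97 and wnt3a.S (5150961 to 5209595) gave 0.84. Of the remaining neighbours, wnt10a.S beside wnt6.S, wnt1.L beside wnt10b.L and wnt3.L beside wnt9b.2.L, each had a single tested gene.

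No gene for Wnt export was called, with 0 of 3 at an adjusted p or an unadjusted p of 0.05 in limma; edgeR and DESeq2 called 0 as well, each with 1 lower at the unadjusted p. Porcupine, which attaches the lipid, and Wntless, which carries Wnts to the surface, gave log2 fold changes of -0.43 (SE 0.20, adjusted p = 0.0885) for porcn.L, -0.21 (SE 0.13, adjusted p = 0.192) for wls.L and -0.36 (SE 0.18, adjusted p = 0.103) for wls.S. All 3 estimates were below 0, and the values do not show that the levels were equal: wls.S was called lower in 5 of the other settings tried, wls.L in the deposited adjusted values (-0.36, adjusted p = 0.00725) and porcn.L without embryo pool 3 (-0.60, adjusted p = 0.0223).

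Frizzled receptors split, with fzd10 and fzd6.L higher in Xenobots and fzd9, fzd5, fzd7, fzd8, fzd4 and fzd2 lower. Of 17 Frizzled genes, all tested, 4 were higher (23.5%, against 29.6% of all tested genes) and 10 lower (58.8%, against 36.2%). Of the lower ones 8 were past the fold threshold (47.1% of the Frizzled genes, against 20.5%), and the median log2 fold change was -1.24. Over all 21 receptors and co-receptors, 4 were higher (19.0%) and 13 lower (61.9%), with a median of -0.83.

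Frizzled 10 rose in both copies. fzd10.L gave 38.7, 40.5 and 38.1 CPM in Xenobots and 14.3, 12.3 and 15.2 CPM in embryos, for a log2 fold change of 1.49 (SE 0.11, adjusted p = 2.6e-06). fzd10.S gave 21.4, 18.0 and 18.4 CPM and 7.30, 8.11 and 8.71 CPM, a log2 fold change of 1.26 (SE 0.13, adjusted p = 1.89e-05). The pools of each group lay close together and far from the other group. Frizzled 6, which orients hair follicles in mouse skin, rose in its L copy, from 16.03, 15.4 and 14.9 CPM in embryos to 23.6, 23.4 and 23.1 CPM in Xenobots (log2 fold change 0.60, SE 0.10, adjusted p = 0.000457), and fzd6.S was not called (log2 fold change -0.36, SE 0.19, adjusted p = 0.132). The summed fzd6 was higher, at 0.39 (SE 0.10, adjusted p = 0.00651). fzd3.L was called at 0.38 (SE 0.15, adjusted p = 0.0489), but its groups overlapped and the call was lost in 11 of 16 other settings, and no call was made for fzd3.S or fzd1.L (0.11 and 0.44). The estimate for fzd3.S changed sign with scaling to total counts and was called higher in the deposited adjusted values (0.43, adjusted p = 0.0417), and fzd1.L was called higher without Xenobot pool 1 (0.58, adjusted p = 0.0353).

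Both copies of Frizzled 9, and Frizzled 5 in its S copy, read below 0.5 CPM in every Xenobot pool. fzd9.L gave 0.344, 0.376 and 0.252 CPM in Xenobots and 15.9, 16.9 and 12.37 CPM in embryos, for a log2 fold change of -5.38 (SE 0.41, adjusted p = 2.76e-06), and fzd9.S fell alike, at -4.92 (SE 0.38, adjusted p = 2.85e-06). Frizzled 5 is a receptor of the developing eye in the frog. fzd5.S gave 0.412, 0.376 and 0 CPM against 6.44, 6.89 and 5.97 CPM, a log2 fold change of -4.96 (SE 0.63, adjusted p = 6.81e-05), -3.94 without Xenobot pool 3, which had no count, and -5.56 without Xenobot pool 1. fzd5.L was lower at -2.79 (SE 0.22, adjusted p = 3.58e-06).

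Frizzled 7, the receptor that acts in gastrulation movements and neural crest induction in the frog, fell in both copies but unequally. fzd7.L stood at 9.03, 10.9 and 8.96 CPM in Xenobots and 40.4, 43.1 and 41.2 CPM in embryos, for a log2 fold change of -2.09 (SE 0.12, adjusted p = 7.9e-07). fzd7.S stood at 1.21, 1.37 and 0.698 CPM and 15.6, 17.2 and 15.03 CPM, a log2 fold change of -3.82 (SE 0.28, adjusted p = 2.2e-06). Lower values in every Xenobot pool were also found for fzd8.S (-2.27), fzd4.S (-2.21) and fzd2.S (-0.83). fzd8.L was called lower at -1.24 (SE 0.33, adjusted p = 0.0075), and lost the call without Xenobot pool 2 (-0.85, adjusted p = 0.0558).

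The co-receptors differed by kind. LRP6, the main partner of Frizzled in β-catenin signalling, was read at 45.4, 34.3 and 41.0 CPM in Xenobots and 40.3, 38.2 and 35.7 CPM in embryos, with overlapping groups and a log2 fold change of 0.07 (SE 0.12, adjusted p = 0.651) that changed sign with scaling to total counts. lrp5.L was lower by a small amount, at -0.38 (SE 0.10, adjusted p = 0.00829). ROR2, a receptor for Wnt5a in signalling without β-catenin, fell in both copies. ror2.S went from 18.7, 22.2 and 19.3 CPM in embryos to 2.47, 4.43 and 1.58 CPM in Xenobots, a log2 fold change of -2.79 (SE 0.29, adjusted p = 1.59e-05). ror2.L went from 24.6, 27.6 and 24.97 CPM to 12.44, 21.1 and 14.8 CPM, a log2 fold change of -0.67 (SE 0.18, adjusted p = 0.0069). Xenobot pool 2 was the highest of its group for both copies.

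Secreted antagonists were the class with the lowest median log2 fold change (-2.77). Of 19 tested, 15 were lower (78.9%, against 36.2% of all tested genes), 13 of them past the fold threshold (68.4% of the 19, against 20.5%). Among the rest 1 was higher (5.26%, against 29.6%) and 3 were not called. Antagonists that passed the filter through the embryo pools alone had to be lower, so these shares and this median are a description. Among such antagonists were sfrp1.L and the 6 in which no Xenobot pool exceeded 3 counts. sfrp5, a secreted Frizzled-related protein of the frog foregut, was the clearest case: sfrp5.L had 0, 1 and 0 counts in the Xenobot pools and 18.0, 16.2 and 15.3 CPM in the embryo pools, at least 82.7-fold lower, and sfrp5.S was at least 24.1-fold lower. Frzb, first known as an antagonist made by the frog organizer, was at least 21.6-fold lower in frzb.L and 17.9-fold lower in frzb.S. The Dickkopf gene dkk2 was at least 14.8-fold lower in dkk2.L and 12.0-fold lower in dkk2.S.

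The other lowered antagonists still gave counts in Xenobots. sfrp2, a Frizzled-related protein of the developing eye and brain, gave 3.31, 6.16 and 1.68 CPM in Xenobots and 19.8, 18.7 and 21.6 CPM in embryos for sfrp2.L (log2 fold change -2.44, SE 0.32, adjusted p = 8.12e-05). sfrp2.S gave 8.38, 6.47 and 6.63 CPM against 15.96, 17.2 and 19.1 CPM (log2 fold change -1.29, SE 0.15, adjusted p = 3.63e-05). Neither copy overlapped between groups, and without Xenobot pool 2, the highest for sfrp2.L, that copy gave -3.02. Notum, an esterase that strips the lipid from Wnts and is itself a Wnt target in many tissues, stood at 2.03, 2.09 and 1.43 CPM in Xenobots and 10.2, 12.0 and 10.6 CPM in embryos for notum.L, a log2 fold change of -2.52 (SE 0.23, adjusted p = 7.29e-06). notum.S was lower at -1.39 (SE 0.21, adjusted p = 0.000267). The Wnt inhibitory factor wif1, which binds the ligand, was lower at -2.81 in wif1.S and -2.11 in wif1.L, and dkk3.S at -2.77. sfrp1.L and sfrp1.S were lower at -4.20 (SE 0.70, adjusted p = 0.000458) and -3.63 (SE 0.84, adjusted p = 0.0035), but rested on few counts: without Xenobot pool 3 they were -3.12 and -2.59, without Xenobot pool 2 -4.86 and -5.07, and without Xenobot pool 1 sfrp1.L was -4.81. DESeq2 did not call sfrp1.S (-2.60, adjusted p = 0.0956).

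A single antagonist copy was higher in Xenobots. Dkk1, the Dickkopf protein that blocks LRP6 and induces heads in the frog, gave 2.89, 3.48 and 3.64 CPM in Xenobots and 1.45, 1.03 and 1.58 CPM in embryos for dkk1.S, a log2 fold change of 1.29 (SE 0.26, adjusted p = 0.0016). dkk1.L gave 2.89, 6.62 and 1.32 CPM against 2.24, 2.22 and 2.42 CPM, was not called at 0.57 (SE 0.48, adjusted p = 0.313), and spread widely in Xenobots, with pool 2 above and pool 3 below every embryo pool. Its log2 fold change was -0.18 without Xenobot pool 2 and 1.02, then called, without Xenobot pool 3, and it was called at 0.62 in the deposited adjusted values (adjusted p = 0.0334). The summed dkk1 was higher, with a log2 fold change of 0.93 (SE 0.28, adjusted p = 0.0167). No call was made for sfrpx.L (-0.21) or sfrpx.S (0.19), whose sign changed when the copies were summed and in the deposited adjusted values, respectively; sfrpx.S was called higher without Xenobot pool 3 (0.35, adjusted p = 0.0159).

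**Figure D4:**
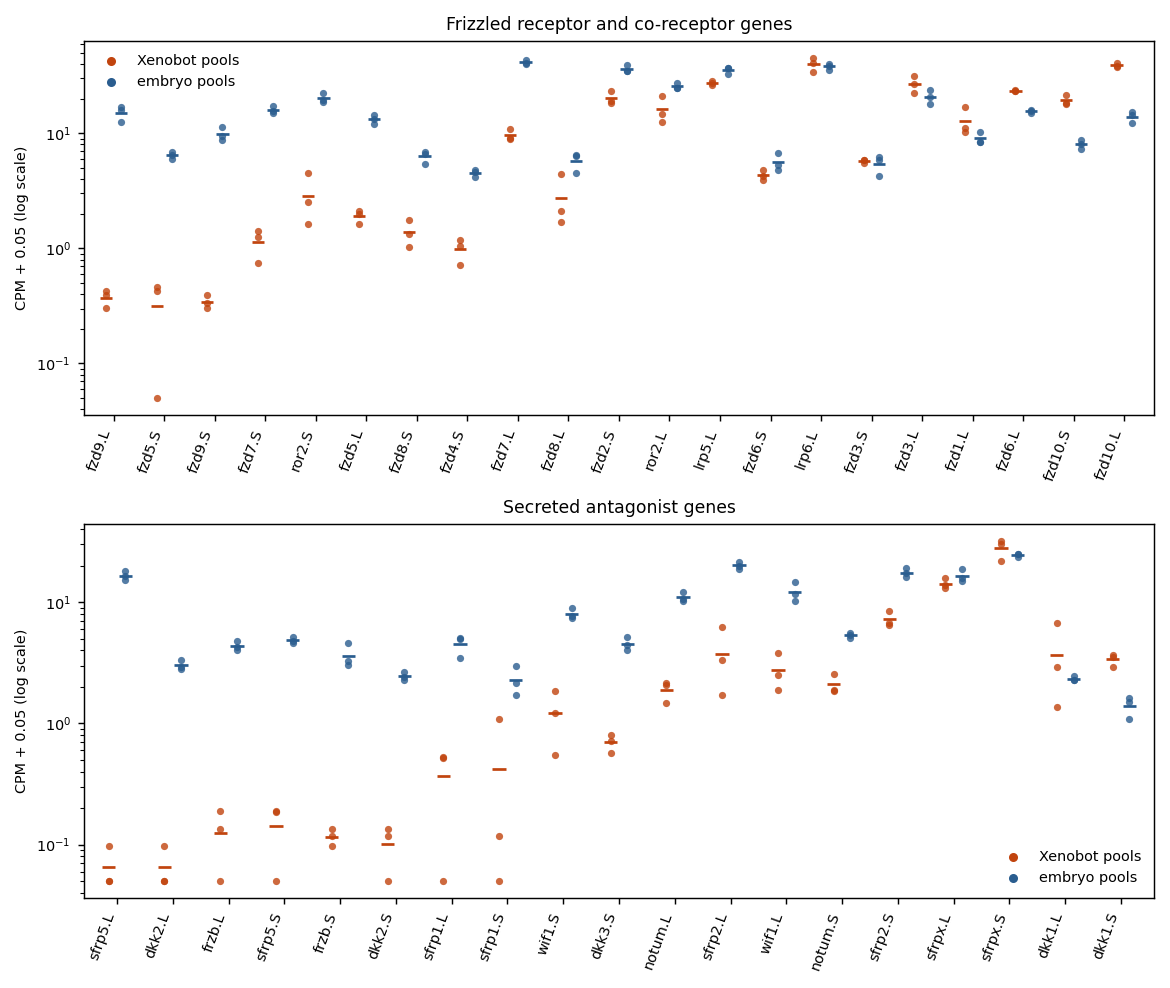
TMM-normalized CPM of Frizzled receptors, co-receptors and secreted antagonists in each pool (dots, CPM + 0.05 on a log axis) with group means as short bars. fzd10 and fzd6.L lie higher in Xenobots, while sfrp5, frzb and dkk2 sit at the bottom of the axis in Xenobots, with sfrp5.L at 15.3 to 18.0 CPM in embryos.

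R-spondins strengthen Wnt signals by binding LGR receptors and removing the ligases ZNRF3 and RNF43, which otherwise clear Frizzled from the membrane. In Xenobots the R-spondins and LGR5 were low, and the ligases changed little or were not called. Of 12 tested genes of the axis, 9 were lower (75.0%, against 36.2% of all tested genes), 4 of them past the fold threshold (33.3% of the 12, against 20.5%). In the other direction 0 were higher (against 29.6%), 3 were not called, and the median log2 fold change was -1.32. No gene of the axis was higher at an unadjusted p of 0.05 either (0 in limma, 0 in edgeR and 0 in DESeq2), and rnf43.S, with the highest estimate, gave 0.23 (SE 0.24, adjusted p = 0.435). Without Xenobot pool 2, rnf43.S was called higher (0.56, adjusted p = 0.0282).

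LGR5 marks stem cells of many epithelia and is a Wnt target in them. lgr5.S gave 0.206, 0.423 and 0.0839 CPM in Xenobots and 14.4, 12.1 and 13.1 CPM in embryos, for a log2 fold change of -5.72 (SE 0.44, adjusted p = 2.88e-06). lgr5.L gave 0.550, 1.27 and 0.504 CPM and 11.2, 10.7 and 10.7 CPM, a log2 fold change of -3.81 (SE 0.33, adjusted p = 5.39e-06). Xenobot pool 2 was the highest and pool 3 the lowest of the Xenobot values for both copies. lgr4.L was lower at -1.20 (SE 0.16, adjusted p = 8.17e-05), lgr4.S was not called (log2 fold change -0.25, SE 0.11, adjusted p = 0.0642) except with RLE scaling and a mean CPM above 1, and the summed lgr4 was lower at -0.52 (SE 0.10, adjusted p = 0.00122).

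Among the ligands of these receptors, rspo3, which is needed for blood vessel formation in the frog, was the lowest. rspo3.L gave 1.31, 0.939 and 0.756 CPM in Xenobots and 13.0, 13.7 and 13.9 CPM in embryos, for a log2 fold change of -3.74 (SE 0.26, adjusted p = 1.7e-06). rspo2.L, rspo2.S and rspo1.L were lower, at -1.45, -2.17 and -1.64, and without Xenobot pool 2 rspo2.S gave -2.95. Neither rspo2 copy was called in the deposited adjusted values (-0.36, adjusted p = 0.159, and -0.54, adjusted p = 0.279). The ligase gene znrf3.L was lower at -0.64 (SE 0.15, adjusted p = 0.00351) and znrf3.S at -0.49 (SE 0.17, adjusted p = 0.0277), the latter without a call when Xenobot pool 1, Xenobot pool 2 or embryo pool 3 was left out (-0.43, -0.45 and -0.38). rnf43.L was not called at 0.00 (SE 0.15, adjusted p = 0.985), with a sign that changed between scalings.

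The cytoplasmic genes that the symbol rule took all differed by less than the fold threshold. Of 11 genes, all tested, 3 were higher (27.3%) and 4 lower (36.4%), near the 29.6% and 36.2% of all tested genes. The other 4 were not called, and the median log2 fold change was -0.11. β-catenin, the effector of the pathway and also a part of cell junctions, was higher in Xenobots: ctnnb1.L stood at 295, 348 and 302 CPM against 199, 236 and 211 CPM in embryos (log2 fold change 0.54, SE 0.11, adjusted p = 0.00167), and ctnnb1.S rose alike (log2 fold change 0.56, SE 0.11, adjusted p = 0.0013). Both calls were lost with scaling to total counts (0.40, adjusted p = 0.0774, and 0.41, adjusted p = 0.0623), which moved the median of all genes from -0.07 to -0.21.

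Axin2, the scaffold of the destruction complex that is a feedback target of β-catenin in most tissues, rose in its L copy and not in its S copy. axin2.L gave 65.9, 47.0 and 59.7 CPM in Xenobots and 21.3, 28.0 and 30.7 CPM in embryos, for a log2 fold change of 1.11 (SE 0.17, adjusted p = 0.00021). axin2.S gave 18.8, 13.9 and 15.98 CPM and 18.0, 18.0 and 19.9 CPM, a log2 fold change of -0.22 (SE 0.13, adjusted p = 0.169). The L copy was apart between groups and the S copy overlapped; summed, axin2 was higher, with a log2 fold change of 0.68 (SE 0.14, adjusted p = 0.00214). Other scaffolds were lower, apc.L at -0.70 (SE 0.18, adjusted p = 0.00548), apc.S at -0.72 (SE 0.15, adjusted p = 0.00172), axin1.L at -0.46 (SE 0.14, adjusted p = 0.0151) and the Dishevelled gene dvl2.L at -0.78 (SE 0.14, adjusted p = 0.000635). The call on apc.L was lost in the deposited adjusted values (-0.18, adjusted p = 0.0944) and that on axin1.L without Xenobot pool 2 (-0.40, adjusted p = 0.0621). The summed axin1 was not called (-0.24, adjusted p = 0.107). No call was made for axin1.S (-0.11), dvl1.L (0.27) or dvl3.L (0.12), and the sign of dvl3.L changed with scaling to total counts.

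Among nuclear factors, lef1 rose and every TCF gene fell, none past the fold threshold. LEF1 acts mostly as an activator and is a Wnt target in many tissues. lef1.L gave 61.9, 50.6 and 54.9 CPM in Xenobots and 27.3, 23.1 and 30.2 CPM in embryos, for a log2 fold change of 1.05 (SE 0.13, adjusted p = 4.91e-05). lef1.S was called at 0.36 with an adjusted p of 0.049997, a call lost in 11 of 16 other settings, among them each embryo pool left out; summed, lef1 was higher, with a log2 fold change of 0.84 (SE 0.12, adjusted p = 0.000229). tcf7l2.L went from 32.9, 26.8 and 23.0 CPM in embryos to 12.1, 7.44 and 13.2 CPM in Xenobots, a log2 fold change of -1.42 (SE 0.22, adjusted p = 0.000252). tcf7.S was lower at -1.10 (SE 0.16, adjusted p = 0.000173). The gene of the repressor tcf7l1, which holds Wnt targets off in the absence of a signal, was lower at -0.86 (SE 0.11, adjusted p = 8.17e-05) in tcf7l1.S and -0.51 (SE 0.11, adjusted p = 0.00275) in tcf7l1.L.

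Several of these genes are known as targets of β-catenin in other tissues, and were gathered here after their values were seen, with no test of the group. Of axin2, lef1, dkk1, notum, lgr5, znrf3 and rnf43, the copies axin2.L, lef1.L, lef1.S and dkk1.S were called higher in Xenobots, both copies of notum, lgr5 and znrf3 were called lower, and axin2.S, dkk1.L, rnf43.L and rnf43.S were not called. Outside the 106 genes, and picked after their values were seen, the target genes sp5.L and sp5.S did not exceed 3 counts in any Xenobot pool and were at least 9.02-fold and 6.20-fold lower. The Wnt feedback inhibitor nkd1.L, picked likewise, gave 9.83, 9.69 and 10.9 CPM in Xenobots and 29.0, 28.9 and 29.4 CPM in embryos, for a log2 fold change of -1.53 (SE 0.11, adjusted p = 2.15e-06), and nkd1.S was lower at -1.40.

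The L and S copies often responded unequally, about as often as across the genome. In a limma test on the log2 ratio of the copies, 18 of 38 pairs of Wnt genes differed between groups at an adjusted p of 0.05 (47.4%, against 49.1% of all 7285 pairs). The L copy took relatively more in Xenobots in 11 of them and the S copy in 7. These 7 include sfrp5 and wnt11, whose Xenobot counts were so few that the pseudocount sets their ratio there. Among the 11 is wnt6, whose S copy was below the filter. wnt6.S averaged 0.490 CPM in Xenobots and 0.261 CPM in embryos, near the pseudocount of 0.5 CPM. The ratio difference of wnt6 (1.41, SE 0.24, adjusted p = 0.000844) therefore reflects mostly the L copy. Of the 36 pairs with both copies tested, wnt16 alone had copies called in opposite directions (3.88% of 6667 pairs did so across the genome). The L share of wnt16 was 3.43 ± 2.33% in Xenobots and 61.1 ± 2.06% in embryos, a difference in the log2 ratio of -4.04 (SE 0.20, adjusted p = 3.15e-07).

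A shift toward L in Xenobots was largest for ror2, whose L share was 85.5 ± 4.26% against 56.2 ± 0.733% in embryos (log2 ratio difference 2.03, SE 0.20, adjusted p = 2.33e-05). axin2 went from 58.6 ± 3.83% in embryos to 78.0 ± 0.855% in Xenobots (log2 ratio difference 1.30, SE 0.12, adjusted p = 2.08e-05), and fzd7 from 72.3 ± 0.880% to 89.9 ± 2.47% (log2 ratio difference 1.34, SE 0.16, adjusted p = 7.57e-05). wnt10a, in which the S copy led slightly in embryos, was led by L in Xenobots, at 65.7 ± 2.27% against 44.3 ± 5.84% (log2 ratio difference 1.13, SE 0.21, adjusted p = 0.0014). lef1 moved less, from 65.2 ± 1.04% to 75.0 ± 1.20% (log2 ratio difference 0.68, SE 0.10, adjusted p = 0.000355). The opposite shift, toward S, was found for wnt9a, with L at 19.3 ± 5.59% in Xenobots and 51.7 ± 1.07% in embryos (log2 ratio difference -1.14, SE 0.19, adjusted p = 0.000858), and for lgr4 and notum, with log2 ratios moving by -0.86 and -1.11. In contrast, β-catenin kept an even balance, with L at 49.7 ± 0.264% and 49.9 ± 0.798% (log2 ratio difference -0.02, SE 0.07, adjusted p = 0.863). In the called pairs sfrp5 and wnt11 at most a few counts were left in Xenobots, so their ratio there was not measurable. The calls on fzd5, tcf7l1 and sfrp2 were lost in 4, 5 and 2 of 10 settings. The other 15, with sfrp5, wnt11 and wnt6 among them, were called in every setting run for them.

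**Figure D5:**
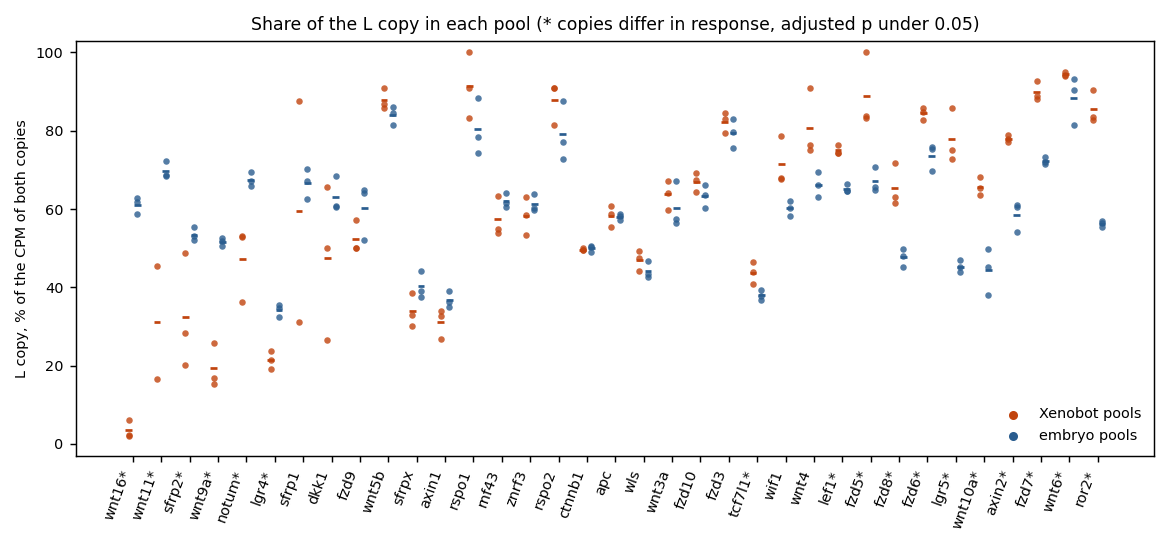
Share of each Wnt gene pair's CPM that came from the L copy, in percent, for each Xenobot and embryo pool (dots) with group means as short bars; pools with no count of either copy have no dot, asterisks mark pairs whose log2 ratio differed between groups, and 3 pairs with at most 3 counts of each copy in every Xenobot pool are left out. wnt16 falls from 61.1% in embryos to 3.43% in Xenobots, while ctnnb1 stays near the middle in both.

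Other genes of the pathway, outside the symbol rule, were read from lists of known modulators. Among modulators of the receptors, 24 of 35 tested genes were lower (68.6%) and 6 higher (17.1%), against 36.2% and 29.6% of all tested genes, with a median log2 fold change of -1.77 against -0.07. The group held a pair of clear rises: kremen2.L, a co-receptor for Dickkopf proteins, gave 34.8, 36.2 and 34.3 CPM in Xenobots and 6.32, 5.14 and 7.40 CPM in embryos (log2 fold change 2.48, SE 0.14, adjusted p = 7.19e-07), and bambi.L, a decoy receptor of the BMP pathway that also touches Wnt, gave 59.7, 57.3 and 51.0 CPM and 11.6, 12.399 and 16.3 CPM (log2 fold change 2.07, SE 0.14, adjusted p = 1.52e-06). Picked after their values were seen, kremen2.S (0.83), kremen1.S (1.55) and bambi.S (1.62) were also higher, kremen1.L (0.30) was not called, and the copies of apcdd1, a membrane inhibitor of Wnt, moved apart in apcdd1.L and apcdd1.S (0.45 and -2.34), the former without a call under total-count scaling. At the low end, sostdc1.L, a secreted antagonist of BMP and Wnt, was at least 47.0-fold lower, and tspan12.L, a partner of Frizzled 4, was lower at -5.12; without Xenobot pool 1 the latter gave -5.83 and without Xenobot pool 3 -4.45.

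Regulators of the destruction complex gave 9 of 34 higher (26.5%) and 10 lower (29.4%), shares near those of all tested genes (29.6% and 36.2%), with a median of 0.06. The APC-membrane recruitment genes amer2.S and amer3.L were at least 17.8-fold and 13.3-fold lower. The APC relative apc2.L, which the symbol rule leaves out, was picked after its values were seen. It gave 0.687, 0.423 and 0.672 CPM in Xenobots and 25.6, 28.2 and 18.2 CPM in embryos (log2 fold change -5.30, SE 0.46, adjusted p = 5.71e-06). Of the kinases, picked after their values were seen, casein kinase 1 alpha rose in csnk1a1.L (0.99, adjusted p = 1.02e-05) and csnk1a1.S (0.85), and gsk3b.L was not called (log2 fold change 0.10, SE 0.16, adjusted p = 0.592), with a sign that changed under total-count scaling, though it was called higher in the deposited adjusted values (0.21, adjusted p = 0.046). Among nuclear cofactors 4 of 22 were higher (18.2%, against 29.6% of all genes) and 12 lower (54.5%, against 36.2%), with a median of -0.47, the repressor genes hic1.L (-5.90) and ctbp2.L (-3.74) being the lowest; hic1.L gave -6.80 without Xenobot pool 1 and -4.76 without Xenobot pool 3.

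Of 34 tested genes known elsewhere as β-catenin targets, 21 were lower (61.8%, against 36.2% of all genes), 7 higher (20.6%, against 29.6%) and 6 not called (median -1.55). The homeobox genes msx2.L and msx2.S, which also respond to BMP in ectoderm, were the highest: msx2.L gave 255, 186 and 233 CPM in Xenobots and 37.0, 36.8 and 38.7 CPM in embryos (log2 fold change 2.57, SE 0.13, adjusted p = 4.42e-07), and msx2.S 209, 172 and 214 CPM and 29.0, 26.1 and 30.2 CPM (log2 fold change 2.80, SE 0.12, adjusted p = 3.34e-07). Their relatives msx1.L and msx1.S, picked afterwards, rose by 1.48 and 1.97. The growth regulator myc, picked afterwards, differed by copy: myc.S was lower at -2.26 (adjusted p = 1.29e-05), and myc.L was called higher at 0.32 (SE 0.12, adjusted p = 0.0321). The call on myc.L held in only 8 of 15 other settings. It was lost with DESeq2 (0.29, adjusted p = 0.0794) and total-count scaling (0.18, adjusted p = 0.443), among others. In the deposited adjusted values myc.L was not called, at -0.084. The planar polarity core, which aligns cilia across the epidermis, had 8 of 17 genes higher and 8 lower, 47.1% each, against 29.6% and 36.2% of all genes (median 0.19). celsr1.L and vangl2.L, picked afterwards, were higher at 0.76 and 0.46, the latter without a call under total-count scaling. The formin gene daam2.S and the diversin gene ankrd6.L were the lowest, at -4.57 and -2.52.

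Within the Xenobot group, many of the lowered genes shared an order of pools. Pool 2 was the highest and pool 3 the lowest Xenobot pool for 24 of the 58 Wnt genes that were lower (41.4%, against 24.2% of all lower genes) and for 1 of the 16 that were higher (6.25%, against 17.4%). The summed muscle markers had that order, with 107, 224 and 21.3 CPM in Xenobot pools 1, 2 and 3. So did the notochord and cartilage markers, mostly col2a1, with 87.0, 170.4 and 67.6 CPM, and the epidermal markers, with 13948, 14046 and 13034 CPM. The other marker sums did not: pool 3 was not the lowest for neural markers (77.1, 85.4 and 83.0 CPM, mostly syt1.L), blood, vessel and liver markers (1.10, 1.60 and 1.18 CPM) or multiciliated cell markers. Pool 2 was not the highest for ionocyte markers. The library totals were likewise highest in pool 2 and lowest in pool 3, with 15599300, 20325075 and 13597538 estimated counts in Xenobot pools 1, 2 and 3. Ribosomal RNA genes took 36.2, 26.4 and 36.9% of them. The part of such tissue, or of these library traits, in the residual values of the lowered Wnt genes was not tested. Among the genes with this order were lgr5.L, lgr5.S, sfrp2.L, ror2.S and rspo2.L, whose values in pool 2 stood above those of both other pools.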

How the data were processed

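Total RNA of 3 Xenobot pools (50 bodies each) and 3 pools of whole stage 35 embryos (10 each) went into stranded, ribosome-depleted libraries that were read from a single end. After fastp trimming, the authors ran STAR in 2-pass mode on the NCBI assembly Xenopus_laevis_v10.1 and deposited the estimated counts per gene that RSEM gave, which divides reads shared by homeologs. The authors also deposited log2 CPM values adjusted for surrogate variables, a step that can take out differences between pools, and these served only as an alternative. The fit to the adjusted values used group alone and did not allow for that step, so its p-values can be too small. It called 10089 genes higher and 10671 lower of 28009.

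Groups came from the sample titles, and no column of another sample was present (0). Genes with CPM above 0.6 in at least 3 libraries were kept (26752). Estimated counts were scaled with TMM factors in edgeR 4.0.16 and tested by limma 3.58.1 after voom (R 4.3.3) in a model of group alone. A call needed an adjusted p (Benjamini-Hochberg) under 0.05, and a gene was past both thresholds with a log2 fold change beyond 2. Where no pool of a group exceeded 3 counts, the fold was taken against 3 counts per library and is a lower bound; floors and counts cover counting error only. Copies were compared with limma on log2((CPM of L + 0.5)/(CPM of S + 0.5)) over 7285 pairs. Alternatives were edgeR's quasi-likelihood test and DESeq2 1.42.0 on rounded counts, RLE and total-count scaling, no filter, a mean CPM above 1, removal of rRNA genes, a replicate block, the adjusted values, each pool left out and, for pairs, a pseudocount of 2 or both copies kept. Summing the copies was added after seeing the data. The scripts were tested on simulated data.

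Members and lists were chosen with earlier results of these data known. Genes were named by rule: in each role, up to 3 of the largest and 3 of the smallest log2 fold changes among called members with a mean of at least 1 CPM in the higher group, and their homeologs; in the other lists, up to 2 at each end past both thresholds. A gene that the rule selects in the other lists is not reported here. All other genes, members included, were named after their values were seen. The planned level per length, and the part of the rule that used it, were not computed, as exon lengths were not used here. Positions came from the RefSeq gene table of the same assembly, which matched 106 of 106 genes.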

Additional observations from a re-analysis of the deposited data

How the results depend on the processing

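The counts of Wnt genes called stayed within 1.5 times of those reported under every alternative run: 11 to 18 higher, 56 to 63 lower, 2 to 3 and 27 to 37 past both thresholds, and 15 to 21 homeolog pairs. Of the 74 called genes, 59 kept direction and call in all alternatives, 14 lost the call in some and wnt16.L reversed. Of the 19 not called, 11 gained a call in at least 1 alternative, 10 reversed in some and 1 stayed the same in all. In the deposited adjusted values some folds shrank by more than 1.5 times with the calls kept. Among them were lgr5.L (-2.69), rspo3.L (-3.01), ror2.S (-1.89), fzd4.S (-1.53), wif1.S (-1.68) and wnt10b.L (-1.36). Over all alternatives nkd1.S ran from -1.53 to -0.76 and ankrd6.L from -2.90 to -1.76, with the calls kept. sfrp1.S ran from -5.07 to -2.21. The median log2 fold change of the tested members (-0.84) moved to -0.98 with total-count scaling and -0.98 without a filter, and to -0.61 in the deposited adjusted values; it was -0.92 to -0.86 with each pool left out. The cause was not tested, except that no filter adds the 13 low genes.

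Signs that reversed were as follows, with cause not tested. With copies summed, which replaces each copy by the pair, wnt16.L gave 1.34, fzd6.S 0.39, axin2.S 0.68 and sfrpx.L 0.030. With total-count scaling, which moved the median of all genes from -0.07 to -0.21, dvl3.L gave -0.021, fzd3.S -0.034, lrp6.L -0.075, rnf43.L -0.12 and gsk3b.L -0.036. rnf43.L also gave -0.014 with DESeq2, -0.032 with RLE scaling and -0.021 with a mean CPM above 1. In the deposited adjusted values sfrpx.S gave -0.085 and myc.L -0.084. With each pool left out, dkk1.L ran from -0.18 to 1.02, axin1.S from -0.23 to 0.054, fzd3.S from -0.065 to 0.20, lrp6.L from -0.023 to 0.18, rnf43.L from -0.12 to 0.12 and gsk3b.L from -0.057 to 0.28.

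Samples with the same number correlated at r of 0.0398 to 0.0812 in their deviations from group means, under 0.1, against -0.0632 to 0.0135 for other pairs, so the numbers were not taken as pairs, although every pool correlated best with its own number. With the replicate block, 16 members were higher, 59 lower, 3 and 33 past both thresholds, 19 homeolog pairs differed and the median was -0.84. The 3 pools of a group and the floors of 0.140 to 0.252 CPM limit what can be said of low genes.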
